A study of Mus musculus with 3 samples.

Results

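The 9 genes described here encode the relay that carries a signal from the T-cell receptor to the cell interior: the kinases Zap70 and Syk, the Tec family kinases Tec and Txk, the adaptors Lat, Lcp2 (SLP-76) and Grap2 (Gads), and the effectors Plcg1 (phospholipase C-gamma 1) and Vav1. They were chosen by name, and all 9 were found among the 55536 annotated genes of each library. Total RNA was sequenced from T cells of the mouse spleen, with directional libraries made from 300 ng of RNA and an ERCC spike-in mix. The cells were female and adult, of the strain B6CASTF1/J, the first cross of a C57BL/6 mother with a CAST/EiJ father, aged 66 days and labelled virgin. The 3 libraries (replicates 1, 2 and 3) make up 1 group, with no treatment, no altered genotype and no control group. The labels carry the term CD3 without saying how the cells were isolated, and the biosamples are filed under a single donor record. Whether they came from separate animals is not stated, so SDs and p-values describe differences among these libraries and possibly no more than technical ones.

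In a resting T cell the receptor has no enzymatic activity of its own. On binding of antigen, Lck phosphorylates the tails of the CD3 chains, ZAP-70 docks there and phosphorylates the membrane anchor LAT and its partner SLP-76, and Gads links the pair. Tec family kinases then activate phospholipase C-gamma 1 on this scaffold, and Vav1 turns on small GTPases that shape the cytoskeleton. Syk, the relative of ZAP-70, serves mainly B cells, mast cells and other myeloid cells, and it is high in early thymocytes.

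Abundance is given as TPM, estimated reads scaled by each transcript's effective length and by the library's total, so that levels can be set side by side between genes. Each library was quantified in 2 ways by its depositors, from alignments (the values given unless stated) and directly from the reads (the second quantification). Estimated counts summed over genes lay between 14988700 and 16875000 per library. Values after ± are SDs over the 3 libraries (n = 3 throughout). T-cell markers fixed as a list of 10 genes summed to 2773 to 3026 TPM and were all above 1 TPM in each library, the highest being Trbc2. The libraries differed from each other beyond sampling noise and none was a copy of another. In bulk RNA, fewer cells of a type and less RNA per cell cannot be told apart.

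The sequences that distinguish the forms of these genes are printed first, because several results below are shares of transcripts with or without them. The Tec and Txk genes lie on the minus strand of chromosome 5, Tec upstream of Txk, with 2938 bases between them. Each has a cassette exon of 66 nt, which in both kinases falls in the part that encodes the SH3 domain, a module that binds proline-rich stretches. The 2 exons (chr5:72779421-72779486 in Tec and chr5:72731764-72731829 in Txk, mm10, GENCODE M21) shared 46 of 66 bases (69.7%) when aligned without gaps, and the shared bases are in capitals:
Tec cassette: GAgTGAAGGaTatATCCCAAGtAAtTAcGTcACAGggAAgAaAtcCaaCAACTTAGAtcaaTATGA
Txk cassette: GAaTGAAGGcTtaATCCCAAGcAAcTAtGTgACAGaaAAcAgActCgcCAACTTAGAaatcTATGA

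Tec has a further alternative segment of 16 nt (chr5:72783759-72783774, minus strand), a longer form of 1 exon that does not keep the reading frame. Syk has a cassette exon of 69 nt (chr13:52624708-52624776, plus strand) that keeps the frame and encodes part of the linker between the SH2 domains and the kinase domain. Both are printed because they separate the transcripts counted below:
Tec longer exon: ttattggcatttacag
Syk cassette: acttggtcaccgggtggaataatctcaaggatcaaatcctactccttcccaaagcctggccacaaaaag

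Lcp2 has annotated coding ends of 2 kinds. Transcript Lcp2-202 reads on past the end of an exon that Lcp2-201 splices, and its 90 coding bases beyond that point (chr11:34089681-34089770, plus strand) start with the GT (capitals) that directly follows that exon. Lcp2-201 instead continues with 120 coding bases in its last exon (chr11:34090565-34090684):
Lcp2-202 end: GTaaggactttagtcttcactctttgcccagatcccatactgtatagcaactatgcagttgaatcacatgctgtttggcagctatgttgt
Lcp2-201 end: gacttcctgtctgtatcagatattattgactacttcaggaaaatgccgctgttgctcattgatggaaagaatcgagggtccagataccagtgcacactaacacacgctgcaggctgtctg

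Txk has annotated starts at position 72752777 and, inside the gene, at 72736602. The 250 bases before each start (chr5:72752778-72753027 and chr5:72736603-72736852, minus strand, RefSeq, GRCm38.p6, the assembly called mm10) are printed below. Complete coding transcripts used these starts unequally. Capitals mark GGAA, the core letters bound by ETS factors, and ACCACA, the reverse complement of the RUNX letters TGTGGT:
Txk upstream start: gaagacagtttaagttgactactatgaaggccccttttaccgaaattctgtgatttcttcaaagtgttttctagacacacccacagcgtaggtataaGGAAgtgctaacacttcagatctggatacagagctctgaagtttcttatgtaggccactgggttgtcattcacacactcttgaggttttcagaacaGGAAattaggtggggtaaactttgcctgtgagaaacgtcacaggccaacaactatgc
Txk internal start: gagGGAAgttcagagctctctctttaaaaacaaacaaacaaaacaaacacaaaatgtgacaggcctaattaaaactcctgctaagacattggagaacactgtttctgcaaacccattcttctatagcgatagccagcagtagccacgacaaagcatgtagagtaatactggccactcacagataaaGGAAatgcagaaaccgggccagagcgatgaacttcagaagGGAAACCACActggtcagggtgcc

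Each window was searched on both strands for these letters and for TATAAA, and in these 2 windows no matches shared a base. The upstream window held 2 matches to GGAA and 0 to the RUNX letters, and the internal window 3 and 1. Among 32851 RefSeq windows of the same length, 93.4% held GGAA or its complement, 14.0% the RUNX letters and 12.4% TATAAA. The Txk windows held no TATAAA.

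All 9 genes were detected in every library, and 7 of them were above 10 TPM in each, a level reached by 25.4% of the 22028 protein-coding genes. The adaptors Lat and Grap2 stood highest, Plcg1, Lcp2, Zap70, Vav1 and Txk followed, and Tec and Syk were many times lower. The median of the 9 means was 77.5 TPM, against 0.487 TPM over all protein-coding genes.

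**Figure D1:**
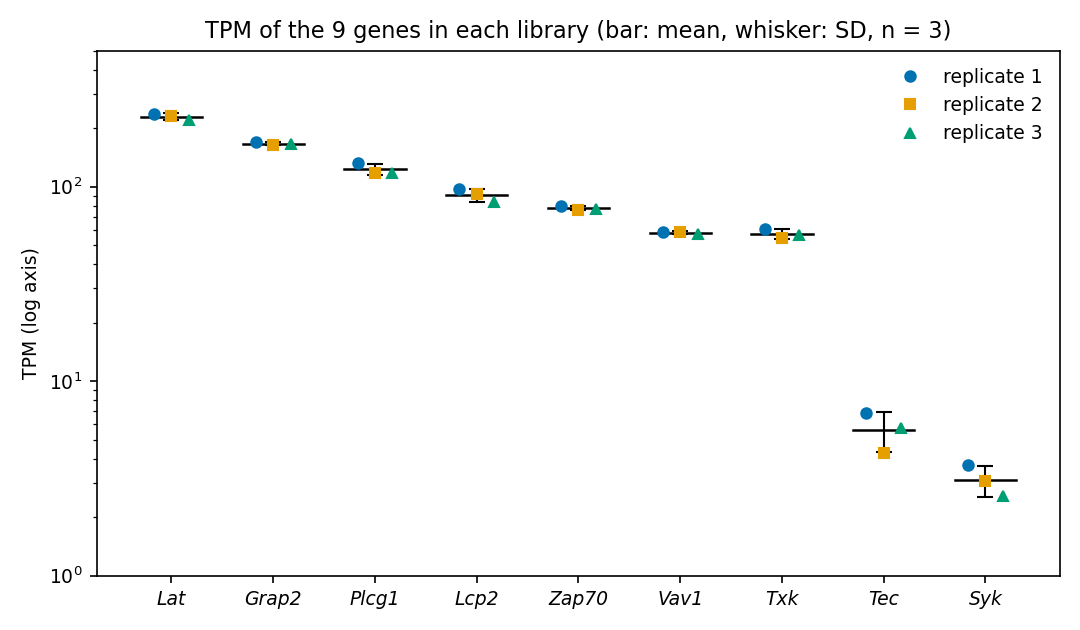
TPM of each gene (vertical axis, log scale) in the 3 libraries (coloured points), with the mean (bar) and SD (whisker) of 3 libraries. Lat, Grap2, Plcg1, Lcp2, Zap70, Vav1 and Txk lie between 54.5 and 237 TPM, and Tec and Syk lie between 2.56 and 6.85 TPM.

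Zap70 (ENSMUSG00000026117.10, chromosome 1, 36761798 to 36782818, plus strand), the kinase that docks on the phosphorylated receptor, was at 79.5, 76.1 and 76.8 TPM in replicates 1, 2 and 3. These rest on 2306, 2067 and 2317 estimated counts, and the mean was 77.5 ± 1.81 TPM. Syk (ENSMUSG00000021457.14, chromosome 13, 52583173 to 52648792, plus strand) was at 3.69, 3.05 and 2.56 TPM, from 231, 201 and 170 counts, with a mean of 3.10 ± 0.567 TPM. The values of the 2 kinases did not overlap: the lowest Zap70 value was many times the highest Syk value. The mean level of Zap70 was 24.99 times that of Syk, and the log2 ratio of TPM + 1 was 4.10, 4.25 and 4.45 in the 3 libraries (mean 4.27 ± 0.17).

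The Tec kinases phosphorylate phospholipase C-gamma. Txk (ENSMUSG00000054892.14, chromosome 5, 72695978 to 72752777, minus strand), also known as Rlk, was at 60.8, 54.5 and 56.7 TPM (57.3 ± 3.24). Tec itself (ENSMUSG00000029217.16, chromosome 5, 72755716 to 72868483, minus strand) was at 6.85, 4.27 and 5.72 TPM (5.61 ± 1.29), from 218, 126 and 195 counts. Btk, the Tec kinase of B cells, was at 0.93, 0.85 and 0.81 TPM. The order Txk, Tec, Btk held in each of the 3 libraries with no overlap between neighbours. Txk was 10.2 times its neighbour Tec, and Tec was 6.50 times Btk in mean TPM. The log2 ratios were 3.16 ± 0.21 and 1.81 ± 0.27. On the scale of protein-coding transcripts alone, the log2 ratio of Txk to Tec was 2.77 and that of Tec to Btk was 0.97.

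Lat (ENSMUSG00000030742.7, chromosome 7, 126363824 to 126369570, minus strand), the membrane anchor on which the complex assembles, was the highest of the 9 at 237, 232 and 219 TPM (229 ± 9.47). It ranked 181 among the 22028 protein-coding genes. Grap2 (ENSMUSG00000042351.9, chromosome 15, 80572594 to 80652854, plus strand), the bridge between LAT and SLP-76, was at 170, 164 and 166 TPM (167 ± 3.19). Lcp2 (ENSMUSG00000002699.13, chromosome 11, 34046920 to 34092295, plus strand), the scaffold that holds Vav1 and the Tec kinases, was at 96.9, 91.6 and 83.2 TPM (90.6 ± 6.89). All 3 adaptors kept this order in each library.

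Plcg1 (ENSMUSG00000016933.17, chromosome 2, 160731300 to 160775760, plus strand), which cleaves membrane lipid to raise calcium and diacylglycerol, was at 132, 118 and 118 TPM (123 ± 8.34). Vav1 (ENSMUSG00000034116.17, chromosome 17, 57279100 to 57328031, plus strand), an exchange factor for small GTPases, was at 58.8, 58.4 and 56.8 TPM (58.0 ± 1.04). In the order of the 9 means, the ranges of neighbours did not overlap, except for Vav1 and Txk, where Vav1 was the higher in 2 of 3 libraries. The step from Lcp2 to Zap70, 1.17-fold here, was 1.00-fold in the second quantification, so those 2 cannot be ordered across both. By estimated count, which also grows with transcript length, Grap2 (7476 to 8629) and Plcg1 (4834 to 5899) came ahead of Lat (4025 to 4476).

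Genes with levels most like those of the highest and lowest member were sought among protein-coding genes by distance in log2(TPM + 1) over the 3 libraries. For Lat these were Snrnp70 (230 TPM), Serinc3 (232 TPM) and Flna (229 TPM). For Syk they were Basp1 (3.04 TPM), Gm45871 (3.03 TPM) and Star (3.19 TPM).

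Every member was highest in replicate 1 by TPM, 9 of 9, where 52.0% of the 5963 protein-coding genes with a mean of at least 10 TPM were also highest in that replicate. That pattern depends on the quantification and the scale. In the second quantification 8 of 9 were highest in replicate 1, and Tec was highest in replicate 2. With TPM rescaled to nuclear protein-coding genes, 6 of 9 were highest in replicate 1 and 3 in replicate 3. With counts scaled by edgeR's TMM factors, 3 were highest in replicate 1 (Lcp2, Txk and Tec), 3 in replicate 2 (Lat, Vav1 and Syk) and 3 in replicate 3 (Grap2, Plcg1 and Zap70).

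The spread between libraries was tested with edgeR over all 13280 genes that passed a filter on low counts, asking whether a gene varied more than genes of like abundance. All 9 members passed that filter. None of the 9 passed the test at an adjusted p of 0.05, where 0.565% of all tested genes did (75 of 13280). Tec alone among them had an unadjusted p below 0.05, as did 5.69% of all genes. Its edgeR quasi-likelihood p was 0.0498, and 0.871 after Benjamini-Hochberg adjustment. DESeq2 marked none of the 9 as having an outlying dispersion. The SD of Tec was 23.0% of its mean, where the square root of its counts gives 7.61%, and Syk had 18.3% against 7.10%. In the second quantification the TPM of Tec was more even, at 8.66, 9.13 and 7.83 (8.54 ± 0.658). An incompletely annotated transcript, Tec-209, held 0, 42.1 and 6.98% of it. By counts, the dispersion of Tec was 2.00 times the trend there, against 3.93 times in the first quantification. It was still the largest such ratio of the 9 members, and the edgeR quasi-likelihood p of Tec was 0.167. For Vav1 (1.80% against 2.07%) and Zap70 (2.34% against 2.12%) the spread was close to the counting error. Leaving out each replicate in turn put no member past the threshold.

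Most members have relatives in the same gene family, several of them used mainly in other blood cells. Described here are 11 ratios of a member to a relative, among them Tec, itself a member, and Grb2, an adaptor of the same pathway. In each of the 11 the first-named gene was the higher in 3 of 3 libraries. An exact two-sided sign-flip permutation over 3 libraries cannot go below p = 0.25, and it gave p = 0.25 for each, 0.25 after Benjamini-Hochberg adjustment over the 12 ratios tested. The sizes below are therefore given with their spread alone.

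Lat exceeded Lat2 (also called NTAL or LAB), its counterpart in B and mast cells, by 46.8-fold in mean TPM. Lat2 itself was at 7.26, 4.36 and 3.10 TPM, so that the log2 ratio ranged from 4.85 in replicate 1 to 5.75 in replicate 3 (5.35 ± 0.45). Lcp2 exceeded Blnk, the SLP-76 relative of B cells, by 90.3-fold, with Blnk at 1.01, 1.67 and 0.33 TPM from 38, 53 and 11 counts. Against Clnk, the relative in cytokine-dependent blood cells, the difference was 272-fold, but Clnk rests on 6 to 10 counts per library and its fold is imprecise. On the log2 scale of TPM + 1 these were 5.57 ± 0.44 and 6.10 ± 0.06.

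Plcg1 exceeded Plcg2, the phospholipase of B cells, by 65.1-fold (log2 5.43 ± 0.22), with Plcg2 at 1.82, 2.29 and 1.54 TPM. Vav1 was 15.2 times Vav2 (3.62 ± 0.11) and 7.04 times Vav3 (2.70 ± 0.32), both broadly used relatives of Vav1. Vav3 was at 6.24, 10.2 and 8.26 TPM. The adaptors of the GRB2 family lay closest together: Grap2 was 3.46 times Grb2 (1.77 ± 0.10) and 2.99 times Grap (1.57 ± 0.12). Grap was the only gene among 9 counterparts at or above 10 TPM in each library, at 57.1, 59.1 and 50.7 TPM.

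**Figure D2:**
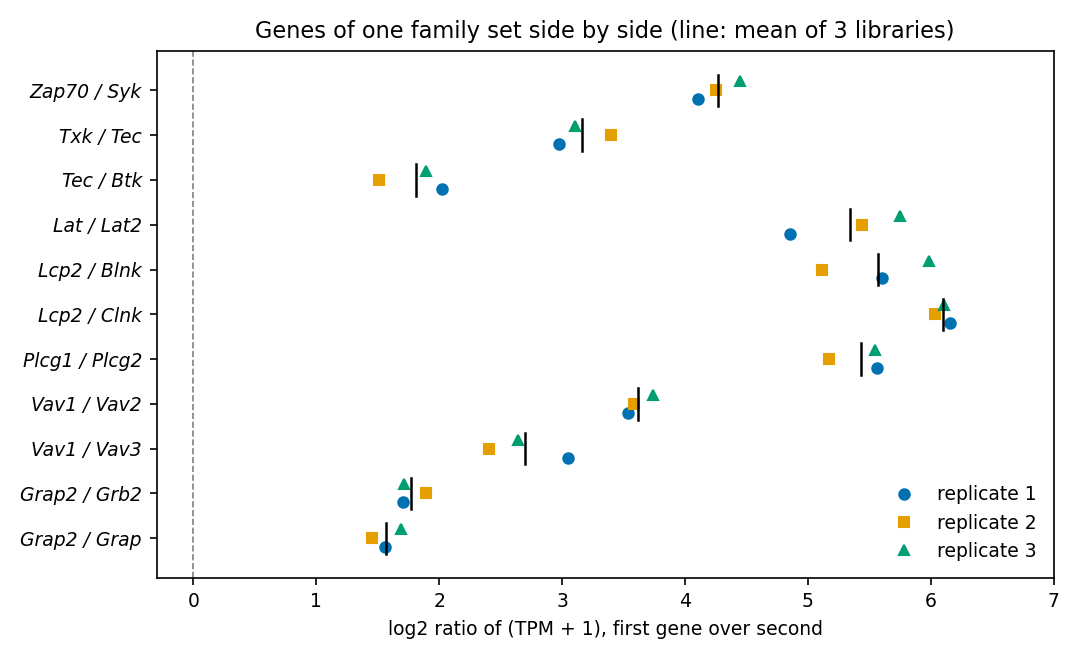
Log2 ratio of TPM + 1 (horizontal axis) for 11 pairs of one gene family, 1 point per library and a line at the mean of 3 libraries. All points lie right of 0, from 1.46 for Grap2 over Grap in replicate 2 to 6.16 for Lcp2 over Clnk in replicate 1.

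Syk and the counterparts of other blood cells were read beside markers of those cells. The 10 B-cell markers summed to 17.1, 24.4 and 12.8 TPM in replicates 1, 2 and 3. Blnk and Plcg2 likewise had their top value in replicate 2 and their bottom value in replicate 3, while Btk and Lat2 had their top value in replicate 1. The sums were 28.7 to 38.5 TPM for 10 monocyte and macrophage genes (5 of 10 at or above 1 TPM in each library, Lyz2 the highest) and 20.3 to 25.8 TPM for 6 natural killer genes (4 of 6). For 5 genes each they were 3.00 to 4.94 TPM for mast cells and basophils, 3.84 to 6.59 for platelets, 5.42 to 6.20 for neutrophils and 3.13 to 5.41 for dendritic cells. Of the B-cell markers, 5 of 10 were at or above 1 TPM in each library and Cd79b was highest, and no marker in any list was at 0 in all libraries. Syk was highest in replicate 1 and lowest in replicate 3, as were the T-cell, neutrophil and dendritic sums. The part of these cells in the levels of Syk, Tec, Blnk, Btk, Lat2 and Plcg2 was not tested.

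Other genes of the pathway were taken as a list of 58. Of these, 44 were at or above 10 TPM in each library and 53 at or above 1 TPM (44.7% of protein-coding genes), with a median of 50.9 TPM. All 7 genes of the receptor and its kinases were above 10 TPM, with a median of 178 TPM, as were 12 of 14 adaptors, 13 of 15 effectors and 11 of 13 brakes. The 5 highest were Rac2, a GTPase downstream of Vav1 (333 TPM), Lck (321 TPM), Cd3e (319 TPM), Dgka, which removes the diacylglycerol that Plcg1 makes (277 TPM), and Fyb, an adaptor bound by SLP-76 (264 TPM). In the second quantification Rac2 was at 196 TPM and no longer among the 5 highest. The 2 lowest were Bmx, at 0, 0 and 0.03 TPM, and Clnk at 0.333 TPM.

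None of the 56 list genes that passed the filter passed the edgeR spread test, and 4 had an unadjusted p below 0.05. These, named after their values were seen, were Cblb, a ubiquitin ligase that restrains receptor signalling, with Blnk, Trat1 and Lat2. Cblb was at 84.5, 63.4 and 64.5 TPM, so that replicate 1 stood above the other 2 (edgeR Benjamini-Hochberg adjusted p = 0.190). DESeq2 marked Cblb as having an outlying dispersion, and without the count filter edgeR called Cblb and Blnk.

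The annotated transcripts of the members differed in how far they encode protein. Transcripts of the protein-coding type held 91.4 ± 0.577% of the TPM of Lat, 86.4 ± 0.265% of Grap2, 84.3 ± 2.21% of Lcp2, 79.2 ± 1.46% of Vav1, 70.7 ± 1.10% of Zap70 and 68.6 ± 0.247% of Plcg1. Lower mean shares were found for Syk (63.5 ± 8.27%), Tec (38.9 ± 8.51%) and Txk (35.5 ± 2.84%), though Syk reached 71.4% in replicate 2. Over 5595 protein-coding genes at or above 10 TPM in each library the median was 69.2%, and 11.2% of them were at or below the share of Txk. The order held only in part in the second quantification. There Plcg1 (62.4 ± 1.85%) was below Syk (64.7 ± 7.42%), and Zap70 (81.0 ± 2.85%) was above Grap2 (77.9 ± 0.265%). Tec was the lowest there, at 33.0 ± 24.7%, below Txk at 44.7 ± 1.02%. Total RNA also contains unspliced RNA, and its part in these shares was not tested.

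**Figure D3:**
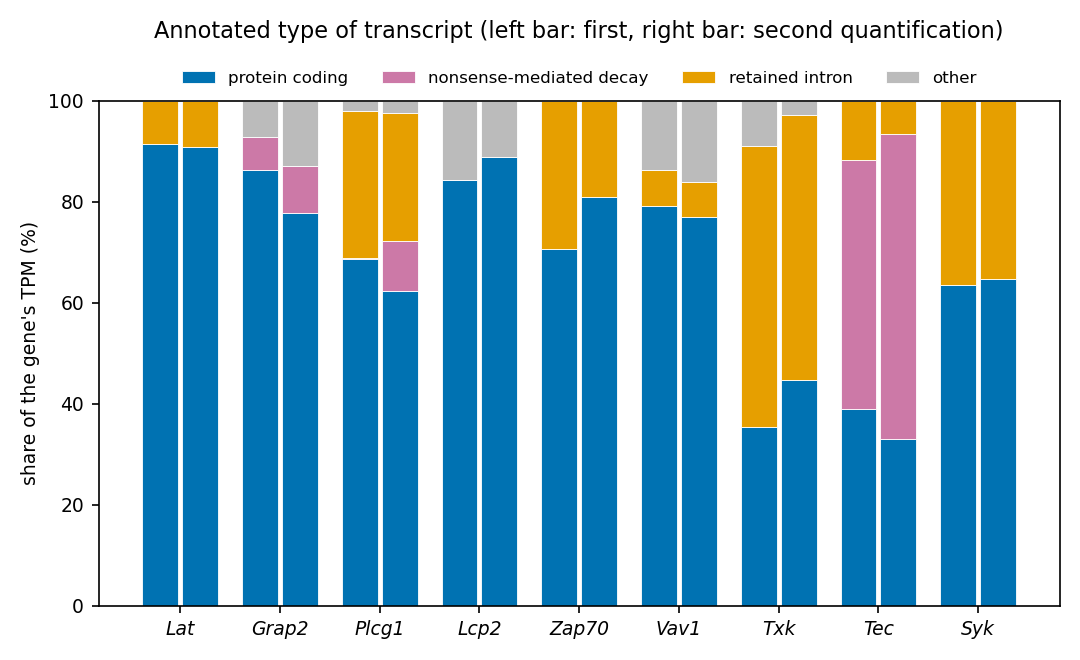
Share of each gene's TPM (vertical axis, %) in annotated transcript types, as means of 3 libraries, with the first quantification on the left and the second on the right of each pair. Txk is the gene with the largest retained-intron share, 55.6% and 52.6%. Tec is the one with the largest nonsense-mediated decay share, 49.3 ± 17.6% and 60.4 ± 24.9%.

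In Txk, transcripts annotated as retaining an intron took 56.6, 54.1 and 56.2% of the TPM (55.6 ± 1.33%), against a median of 26.4% among 3979 genes with such an entry. The leading one was Txk-205, a single exon of 4210 nt that covers the first exon and runs into the first intron. It held 36.7, 36.1 and 36.2% of the TPM of Txk, and 34.8 ± 0.39% in the second quantification. Txk-204, which keeps an intron near the other end of the gene, held 19.3 ± 1.12%. The libraries hardly differed in these shares. The protein-coding share of Txk was 44.7 ± 1.02% in the second quantification, above all 3 values of the first, and 20.97% of genes were at or below it there.

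Complete coding transcripts of Txk divided between the starts whose windows are printed above. The internal start, used by Txk-202, took 72.6, 56.1 and 81.5% (70.1 ± 12.9%), and the upstream start the remaining 29.9%. In the second quantification the internal start took 96.5, 86.8 and 97.5% (93.6 ± 5.93%). Replicate 2 was the lowest for the internal start in both. Among complete coding transcripts the internal start was thus the larger in 3 of 3 libraries under both, while its size differed between them. Txk-205 and Txk-204, annotated as retaining an intron, begin near the upstream start and are not counted in these shares. They held 36.3 and 19.3% of the TPM of Txk (34.8 and 17.7% in the second quantification), and Txk-202 held 24.7% (41.8%). The order given therefore covers complete coding transcripts only. The coding sequence of Txk-202 and of Txk-201 has the same length, 1581 bases. The 66-nt cassette printed above was included in 97.1, 100 and 100% of informative Txk transcripts (99.0 ± 1.68%).

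In Tec, transcripts annotated for nonsense-mediated decay, which carry an early stop, held 58.6, 29.0 and 60.3% of the TPM (49.3 ± 17.6%). The leading one was Tec-208, an incompletely annotated transcript with the 16-nt longer exon, at 49.9, 25.5 and 56.6%. Replicate 2, which had the fewest Tec counts, stood apart from the other 2 in both. The 16-nt form made up 58.2, 33.0 and 61.7% of informative Tec transcripts (51.0 ± 15.6%), and 58.5 ± 4.49% in the second quantification. For the 16-nt form the 3 libraries lay there between 53.4 and 61.8%, with replicate 2 between the others. Tec-208 itself was at 43.0, 14.9 and 44.8% in the second quantification, so that replicate 2 again stood apart. Transcripts annotated for nonsense-mediated decay together held 60.4 ± 24.9% of the TPM of Tec there.

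The Tec cassette of 66 nt was included in 68.4, 91.2 and 65.7% of informative transcripts (75.1 ± 14.0%), and in 70.9, 68.8 and 80.5% in the second quantification (73.4 ± 6.25%). Which library was highest thus changed with the quantification. In both, each library included the homologous Txk exon more often than the Tec exon: the highest Tec value was 91.2% and the lowest Txk value 92.6%. Informative Tec transcripts had a mean of 174 estimated counts per library, against 941 for Txk. For the coding transcripts themselves, Tec-201 and Tec-202 changed places between libraries (Tec-201 was at 0, 1.77 and 0 TPM and Tec-202 at 1.86, 0.29 and 1.80 TPM), and in the second quantification Tec-202 was near 0.

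The Syk exon of 69 nt was included in 87.1, 94.9 and 87.9% of coding transcripts (89.98 ± 4.30%), and in 81.9 ± 3.76% in the second quantification, where replicate 2 was again the highest. Both figures rest on few reads, a mean of 156 informative counts per library in the first. The start of Syk could not be placed: the downstream start took 26.7, 33.6 and 60.0% of complete coding transcripts, with replicate 3 far above the others, and 17.9, 56.7 and 61.1% in the second quantification.

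**Figure D4:**
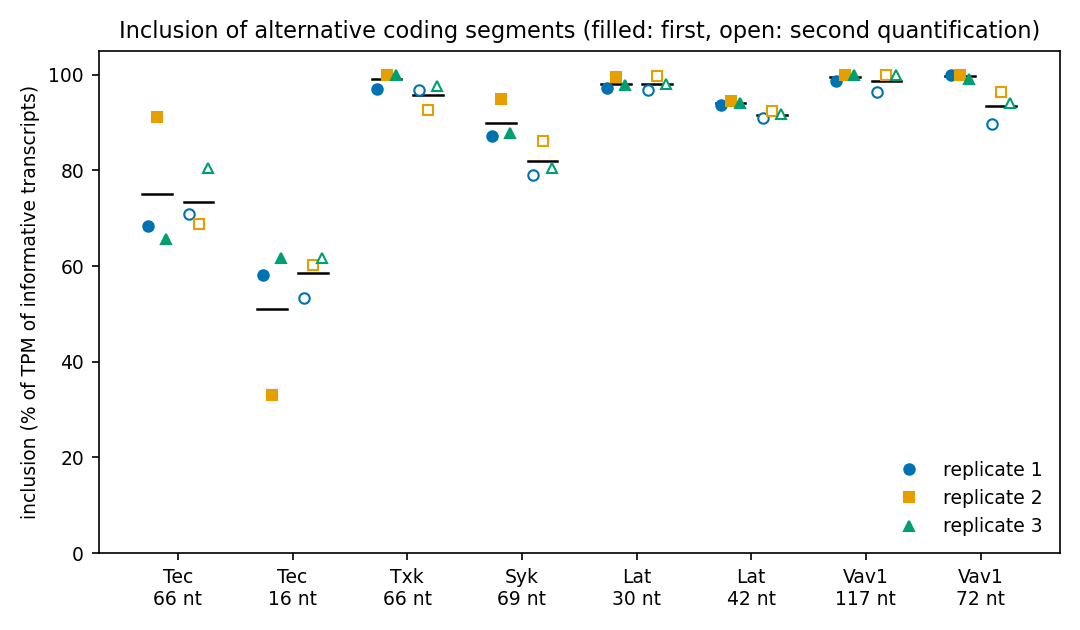
Inclusion of 8 alternative coding segments (vertical axis, % of the TPM of informative transcripts), 1 point per library (filled for the first, open for the second quantification) with means as lines. The 2 Tec segments spread most, from 33.0 to 91.2% in the first quantification, and Txk, Lat and Vav1 stay above 89%.

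Alternative segments of the other members were nearly always included. Lat has cassette exons of 30 and 42 nt, included in 98.1 ± 1.25% and 94.1 ± 0.403% of informative transcripts, and in 98.1 and 91.6% in the second quantification. A cassette of 117 nt in Vav1 was included in 99.5 ± 0.790% and 98.8 ± 2.12%, and a 72-nt part of its first exon in 99.7 and 93.5%. Lat-201 carried 84.3% of the TPM of Lat and Vav1-201 78.6% of that of Vav1.

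The Lcp2 ends printed above took near-equal shares of complete coding transcripts in the first quantification and less equal ones in the second. The end bases of Lcp2-202 lie in an intron of Lcp2-201, and the part of unspliced RNA in its share was not tested. The upstream end of Lcp2-202 took 45.5, 49.5 and 50.9% of complete coding transcripts (48.7 ± 2.81%), and 40.5, 45.8 and 45.1% in the second quantification. Replicate 1 was lowest in both. Lcp2-202 encodes 1569 bases and Lcp2-201 1599 bases, so that the 2 differ at the end of the reading frame.

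Grap2 was divided between Grap2-202, which starts at 80572594 and has a last exon of 343 nt, and Grap2-201, which starts at 80623483 and has a last exon of 4432 nt. Both have 966 coding bases. Grap2-202 took 49.5, 50.2 and 50.8% of complete coding transcripts (50.1 ± 0.656%). In the second quantification it took 39.4, 36.9 and 38.9% (38.4 ± 1.32%), below all 3 values of the first. Plcg1 used its downstream start, that of Plcg1-203, for 96.3, 97.3 and 95.9% of complete coding transcripts, and for 90.7 ± 0.965% in the second quantification.

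**Figure D5:**
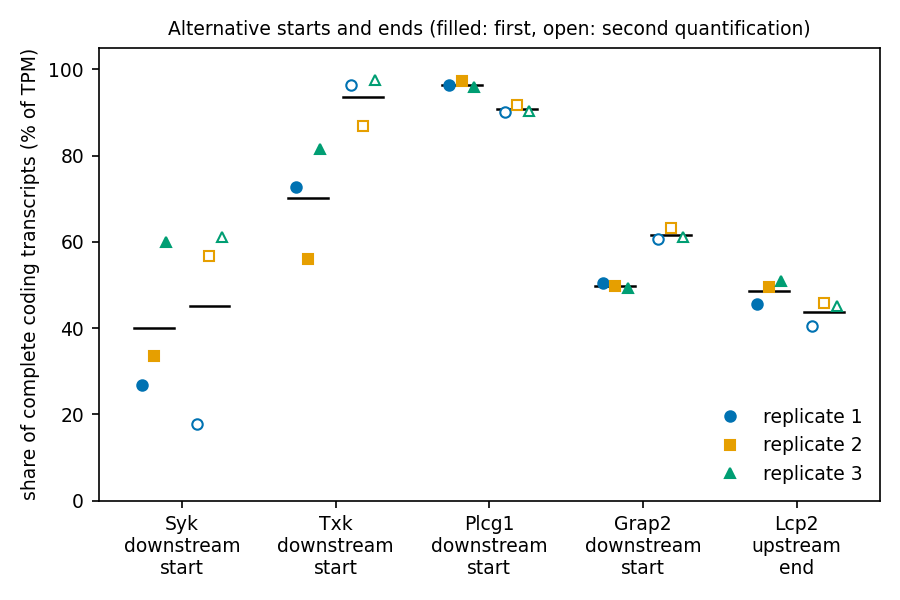
Share of complete coding transcripts (vertical axis, %) from the downstream start of Syk, Txk, Plcg1 and Grap2 and from the upstream end of Lcp2, 1 point per library (filled for the first, open for the second quantification) with means as lines. Plcg1, Grap2 and Lcp2 differ little between libraries within a quantification, and Syk ranges from 17.9 to 61.1%.

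The same transcript led in both quantifications for 6 of 9 members, where 73.4% of 5326 genes of at least 10 TPM with several transcripts did. The exceptions were Syk, Txk and Grap2. Tec and Syk lay below 10 TPM and so outside that set of genes. Some members overlap other annotated genes. Gm49553 (26.4 TPM) lies inside Grap2 on the same strand, so reads there can belong to either. Zhx3 overlaps Plcg1 on the opposite strand at 4.14 TPM, and the remaining overlapping genes were below 0.5 TPM.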

How the data were processed

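RNA was measured in 3 libraries of mouse splenic T cells, all of 1 group by their labels. The members and gene lists were chosen with earlier results of these data known. Estimated counts, TPM, FPKM and the percent of a gene's TPM in each transcript are the authors' values per the file headers, made from transcriptome alignments to mm10 with GENCODE M21 per the deposited descriptions. The second quantification (deposited estimated counts and TPM per transcript) was made from the reads against the same annotation and was summed per gene. Aligner and quantifier: not given in the sources used here. All reads were assigned to 1 reference genome, and the parental alleles were not analysed here.

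Each gene table had 81881 entries. The 55536 genes all matched the annotation, and 97 spike-in and control sequences (0.309 to 0.318% of the counts) and 26248 entries named by a number (at most 5.58e-05%) were left out. Segment inclusion was the TPM of transcripts with a segment over that of informative transcripts, the spanning ones that include or skip it. Transcripts annotated as retaining an intron were not among the informative ones. Starts and ends used complete protein-coding transcripts. Ratios used log2(TPM + 1), and 1 of the 12 tested is not reported here. Promoter windows were matched by symbol for 9 of 9 members. A level counts as reached at 1 or 10 TPM in each library.

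The spread test used rounded counts, filterByExpr, TMM, an intercept-only model, and an F test of the robust quasi-likelihood dispersion against its trend, with Benjamini-Hochberg adjustment at 0.05. Tested on simulated data for this comparison (13280 genes), 203 genes were called and 8 of them falsely. A change of 2-fold in 1 library was found for 95% and one of 4-fold for 100% of the altered genes. The simulation gave every gene the same dispersion and altered only genes above a floor on the mean count. It therefore does not give the recovery in the real data, where dispersion differs between genes. Named genes are the members, the second gene of each ratio, list genes that pass the spread test or otherwise the 5 highest and 2 lowest, and the 3 nearest in level to the highest and lowest member. Marker lists are given as counts and sums. The closing section gives the effect of leaving out each replicate, of other filters, of a non-robust fit and DESeq2, and of FPKM, posterior mean TPM, the second quantification and a pseudocount of 0.1. Tables and figures were made in Python 3.11.15 (pandas 2.3.3, numpy 2.4.6, scipy 1.17.1, matplotlib 3.10.9), and models in R 4.3.3 using DESeq2 1.42.0 and edgeR 4.0.16 (with limma 3.58.1). Intervals and floors would cover counting error only, since PCR copies are not independent molecules.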

Additional observations from a re-analysis of the deposited data

How the results depend on the processing

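The 11 ratios described kept their direction in 97 of 97 alternatives. Many of these could not change it, because all libraries already shared 1 direction. That holds for leaving out a replicate, leaving out genes under 1 TPM, the other pseudocount and FPKM. Only the second quantification, posterior mean TPM and protein-coding transcripts alone could have reversed a ratio. The alternative without genes under 1 TPM gave no value for Tec to Btk and Lcp2 to Clnk. The log2 ratio of Tec to Btk ranged from 0.97 to 2.54 and that of Lat to Lat2 from 4.79 to 6.29. The number of genes beyond the abundance trend, 75, was 303 of 22813 without the filter, 28 with the non-robust fit and 125 by DESeq2's marking of outlying dispersion. It was 35 to 85 with 1 replicate left out: 43 without replicate 1 and 35 without replicate 3. No member was called under any of these, and the lowest adjusted p of a member was 0.604. Member levels in TPM moved by more than 1 SD in 18 of 45 alternatives, all of them the second quantification, which gives a median of 1.30 times the first (log2 0.38) over genes of at least 10 TPM, or the rescaling to nuclear protein-coding genes, which hold 34.4% of the TPM. Protein-coding shares moved by more than 1 SD in 7 of 36, all in the second quantification. The causes were not tested. Counts of 126 to 231 limit Tec and Syk. No paired analysis was possible because there is 1 group.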
